A study of Mus musculus with 24 samples.

Results

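The genes described here code for the extracellular matrix and for the enzymes that remodel it: collagens, laminins, matrix metalloproteinases and their tissue inhibitors, fibrillins, fibronectin, and the glycoproteins and small proteoglycans Sparc, Lum, Dcn and Bgn. Members were all probe sets whose platform gene symbol was Col, Lama, Lamb, Lamc or Mmp followed by a digit, began with Timp or Fbn, or was Fn1, Sparc, Lum, Dcn or Bgn. This gave 87 probe sets for 62 genes, of 12488 probe sets on the array, 10855 of which had 1 gene. The rule uses gene symbols and no measured value, and it was set with earlier results of these data known. A probe set is a group of short probes for 1 transcript, and probe sets of 1 gene are kept apart here.

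Whole tissue was taken from 4 regions of the gut of conventional mice, which carry a microbiota, and of germ-free mice, which carry none, and total RNA was hybridised to 24 arrays. The regions were corpus (the stomach without its antrum), jejunum, descending colon and rectum. Each of the 8 groups had 3 arrays. Strain, sex and age of the mice are not in the labels used here. The comparisons ask how matrix transcripts differ along the tract and between mice with and without a microbiota. Signal is linear and scaled to a common level on each array. In bulk tissue, fewer cells of a type and less RNA per cell cannot be told apart.

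Fibrillar collagens (types I, III, V and XI) form the rope-like fibres of the submucosa and of the connective tissue around muscle, and are made mainly by fibroblasts and smooth muscle cells. Type IV collagen and the laminins build the basement membrane, the thin sheet under epithelium and around blood vessels and muscle cells, and collagens VII and XVII anchor stratified epithelium to it. Metalloproteinases cut matrix proteins, and Timp proteins block them. In the mouse small intestine Mmp7, also called matrilysin, is a product of Paneth cells, where it activates defensins.

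Of the 87 probe sets, 63 (50 genes) had signal above 51.5 on at least 3 arrays and were tested. The other 24 were not tested, and 12 genes had no tested probe set: Col4a3, Col4a4, Col10a1, Col11a2, Col22a1, Fbn2, Mmp3, Mmp8, Mmp9, Mmp10, Mmp16 and Mmp24. Of the probe sets not tested, 8 lay at or under the floor of 21.2, the level below which signals were not told apart, on all 24 arrays.

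Markers of region went against the labels of 3 libraries. The summed signal of jejunal epithelial markers was 33467 to 56772 in the jejunum libraries, except for 677 in the library labelled conventional jejunum 3, and it was 29369 in the library labelled conventional rectum 1. The summed signal of hindgut epithelial markers was 7199 to 12822 in both hindgut regions, except for 982 in the library labelled conventional rectum 1. It was 9701 in the library labelled conventional jejunum 3 and 8874 in the library labelled germ-free corpus 3, against 335 to 1925 in the other corpus libraries. Germ-free corpus 3 and germ-free descending colon 3 were also the closest pair of all libraries, with a median absolute log2 difference of 0.0882 against 0.1781 to 0.5831 for the 24 pairs within a group. Whether these 2 arrays hold the same RNA was not tested. Further libraries stood apart in part of their markers. In germ-free descending colon 1, Hoxb13, a hindgut homeobox gene, read 112 against 1082 to 1728 in the other descending colon libraries. In germ-free rectum 1 the gastric proton pump gene Atp4a read 1968 against 135 to 205 in the other rectum libraries. Atp4a also read 874 in germ-free jejunum 3, against 111 to 186 in the other jejunum libraries. The hindgut marker Car1 read 1432.5 in germ-free corpus 2 and 1828 in germ-free corpus 3, against 9.2 to 15.7 in the other corpus libraries. All libraries are kept under their labels, and results are also given without the 3 libraries.

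The sequences just before 5 metalloproteinase genes that lie along chromosome 9 are shown because 3 of these genes had different regional patterns, described further on: Mmp7 in jejunum, Mmp12 in corpus and Mmp13 near the filter level in every region. Each is the 100 bases before an annotated start on the plus strand of RefSeq's mouse build GRCm38.p6, printed 5′ to 3′. Capitals mark TGAGTCA or its reverse complement TGACTCA, the motif of AP-1 factors, and TATAAA on either strand, the TATA box. The coordinates are chr9:7272414-7272513 for Mmp13, chr9:7347274-7347373 for Mmp12, chr9:7445722-7445821 for Mmp3, chr9:7502242-7502341 for Mmp10 and chr9:7691990-7692089 for Mmp7.
Mmp13: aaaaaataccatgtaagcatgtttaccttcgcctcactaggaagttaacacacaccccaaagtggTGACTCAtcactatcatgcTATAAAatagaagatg
Mmp12: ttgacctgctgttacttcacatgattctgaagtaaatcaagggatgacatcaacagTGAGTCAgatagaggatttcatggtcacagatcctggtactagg
Mmp3: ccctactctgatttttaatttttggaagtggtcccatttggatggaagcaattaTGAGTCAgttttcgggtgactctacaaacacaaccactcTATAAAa
Mmp10: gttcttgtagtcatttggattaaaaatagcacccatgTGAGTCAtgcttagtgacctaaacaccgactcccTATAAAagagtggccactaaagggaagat
Mmp7: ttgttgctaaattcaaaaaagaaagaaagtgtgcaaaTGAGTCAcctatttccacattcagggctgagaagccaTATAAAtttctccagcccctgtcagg

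The AP-1 motif was in all 5 stretches shown, and the TATA box in those of Mmp13, Mmp3, Mmp10 and Mmp7. In Mmp7 and Mmp10 the AP-1 motif began at the same place, 63 bases before the start (position -63), and TATAAA at -26 and -29. The AP-1 motif began at -35 in Mmp13, -44 in Mmp12 and -46 in Mmp3. TATAAA began at -16 in Mmp13 and -7 in Mmp3, nearer to the annotated start, so the name TATA box stands here for the letters only. Of the 32851 stretches of this length in the promoter table, 1.88% held the AP-1 motif, 5.56% the TATA box and 0.149% both. Mmp12 and Mmp7 each had a further annotated start, not shown, whose stretch held neither motif. For these genes the stretch with a motif was the one shown. Its presence in all 5 therefore follows in part from that choice and cannot be set against the share of all stretches. The table held windows for 41 of the 62 member genes. A match of letters is a description and not evidence of binding.

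For most of the matrix genes the jejunum had the lowest signal of the 4 regions and the corpus the highest. Among the 63 tested probe sets the mean signal was highest in the corpus for 47 and lowest in the jejunum for 43. Neither count was made over all probe sets. Averaged over both states, 39 of 63 probe sets (61.9%) of 32 genes were lower in the jejunum than in the corpus, with 6 arrays on each side, against 19.2% of all 9033 probe sets tested. Only Mmp7 was higher, where the share of all probe sets was 13.7%. The median log2 difference of the tested members was -0.89, and that of all probe sets was -0.10. Because a probe set high in 1 region passes the filter more easily, the median was also taken over all 87, where it was -0.44. Without the filter the median of all probe sets was -0.035. The 87 include the 8 at the floor on all arrays, whose difference is 0 by construction. These counts describe the members and are not a test of the group.

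Each state was also compared in its own arrays, where 50 of the 63 differences were below 0 in both states. In conventional mice 28 of 63 were lower in the jejunum (10.9% of all probe sets), and in germ-free mice 35 were (13.2% of all probe sets). Of these, 25 were lower in both. Without the 3 libraries, 40 of 63 were lower (21.9% of all probe sets), again with Mmp7 alone higher. All jejunum arrays lay under all corpus arrays for 15 members (5.11% of all probe sets), and for 36 members without the 3 libraries (16% of all probe sets).

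**Figure D1:**
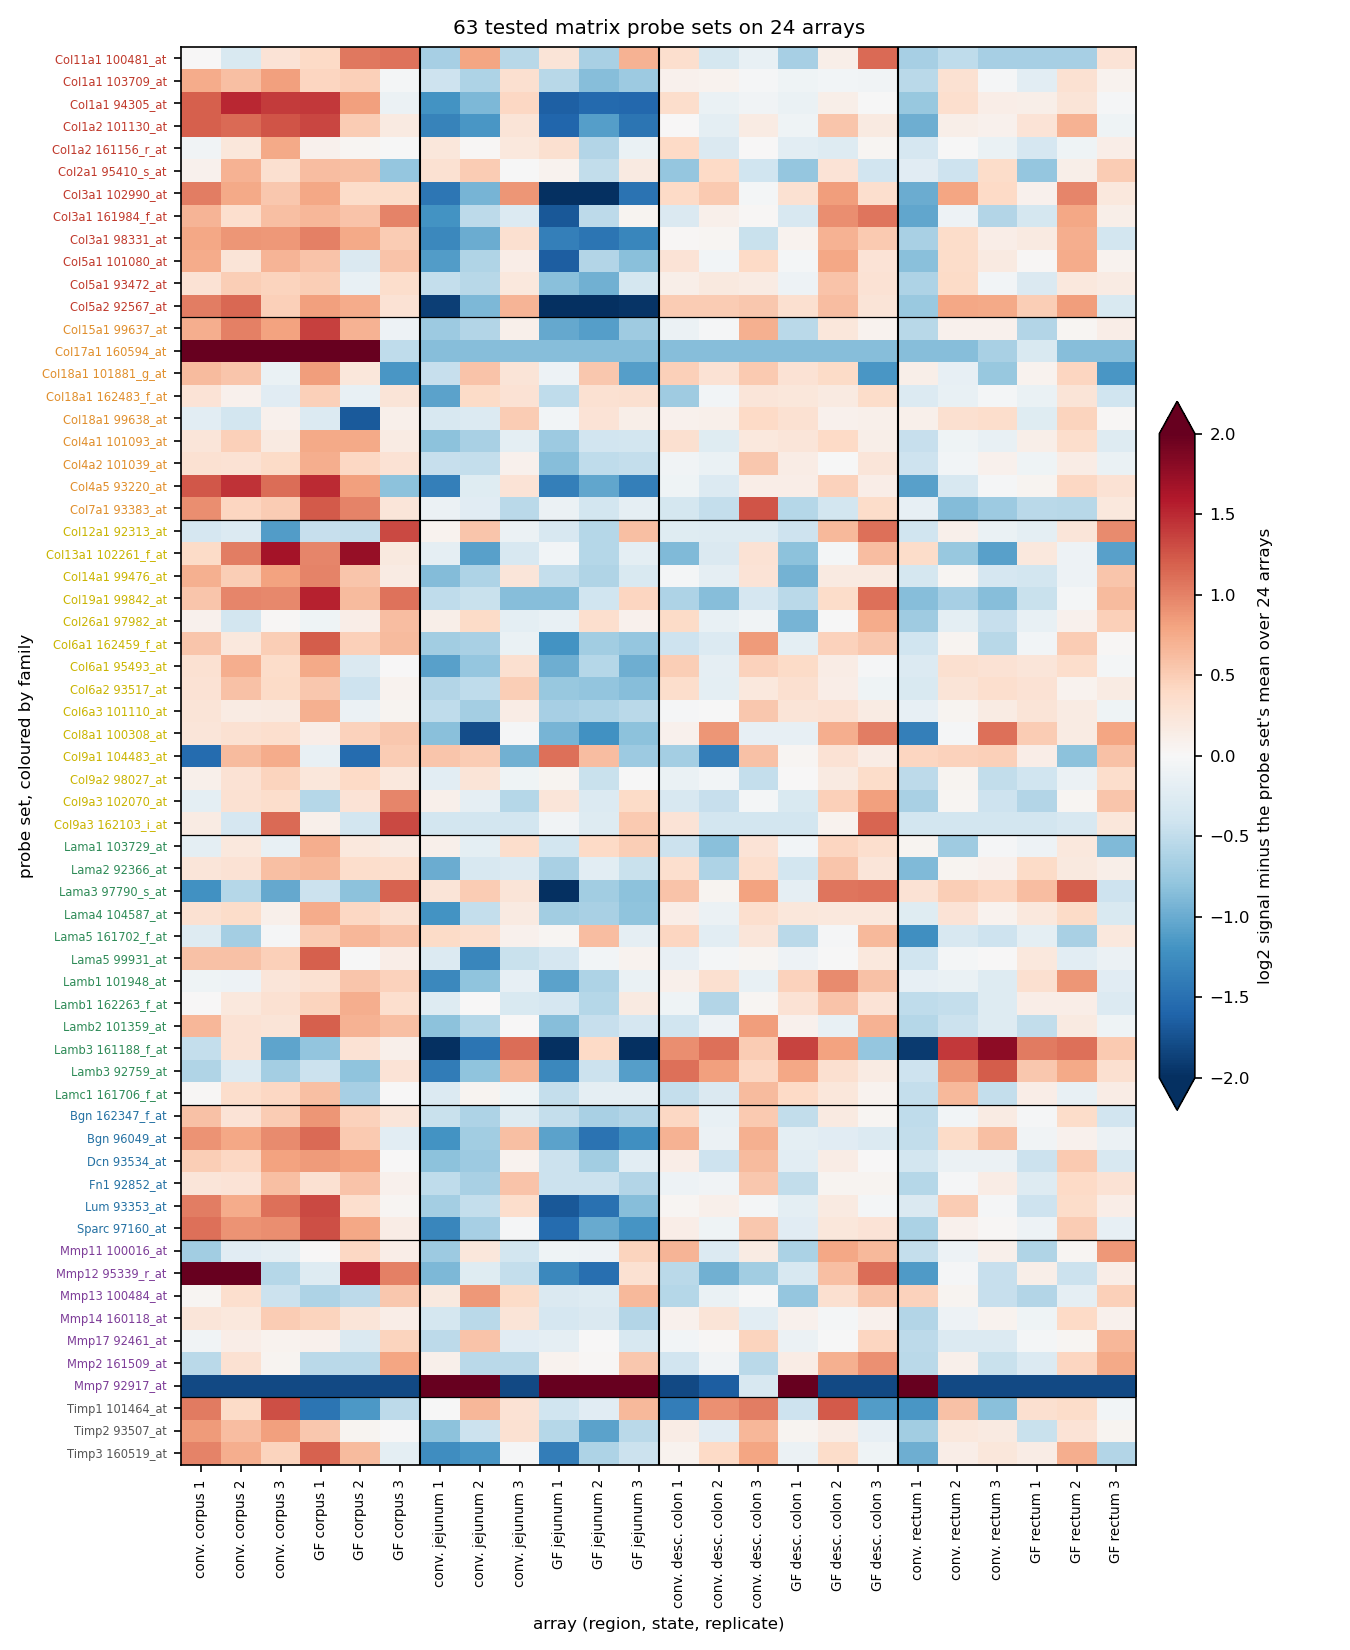
Log2 signal of the 63 tested probe sets (rows, coloured by family) on the 24 arrays (columns, by region, state and replicate), each minus its mean over all arrays and drawn from -2 to 2. The corpus columns are mostly red and the jejunum columns mostly blue, while the columns labelled conventional jejunum 3, conventional rectum 1 and germ-free corpus 3 differ from the others of their region.

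Of the fibrillar collagens 9 of 12 tested probe sets were lower in the jejunum and none was higher. Col1a1 and Col1a2 code for the chains of type I collagen, the main fibre of connective tissue. The brighter Col1a1 probe set had signals of 1011 to 3106 in the corpus with a median of 2682, and of 350.5 to 1459 in the jejunum with a median of 424. The 5 lowest jejunum arrays read 350.5 to 584, and the highest was the library labelled conventional jejunum 3. Its log2 difference was -2.11 ± 0.25 (SE), a 4.32-fold lower level, with adjusted p = 8.07e-06. The other Col1a1 probe set differed by -0.98 ± 0.16 (adjusted p = 9.83e-05).

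The Col1a2 probe set with the higher corpus signal was 4.01-fold lower, at 431 ± 265 in the jejunum against 1614 ± 462 in the corpus (SD, n = 6 each; adjusted p = 1.2e-05). The other Col1a2 probe set differed by -0.16 and was not called (adjusted p = 0.48), so the probe sets of this gene disagree. The 3 probe sets of Col3a1, the chain of type III collagen that accompanies type I in distensible organs, were all lower, by -1.91, -1.81 and -1.33. On the brightest of them the corpus arrays ran from 1433 to 2037 and the jejunum arrays from 366.8 to 1259, with no overlap. Col5a2, a chain of type V collagen that regulates fibre width, fell by 2.27 on the log2 scale (SE 0.34, adjusted p = 4.32e-05). Its jejunum signal was 46.5 to 179 on 5 arrays and 535 on the library labelled conventional jejunum 3, against 408 to 743 in the corpus. Both probe sets of its partner chain Col5a1 were lower as well, by -1.20 and -0.81. Col2a1 and Col11a1, better known from cartilage, read at most 73.5 on any array and were not called.

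For the members named above the 150 bases before the annotated start are shown for Col1a2 and Col3a1 (GRCm38.p6, plus strand, chr6:4505468-4505617 and chr1:45311388-45311537). These were the fibrillar genes with a promoter entry that were lower in the jejunum, Col1a2 on its called probe set only. Capitals mark CCAAT or its reverse complement ATTGG, and TATAAA on either strand.
Col1a2: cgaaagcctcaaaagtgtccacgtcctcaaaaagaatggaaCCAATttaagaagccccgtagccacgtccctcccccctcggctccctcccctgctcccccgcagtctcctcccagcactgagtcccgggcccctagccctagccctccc
Col3a1: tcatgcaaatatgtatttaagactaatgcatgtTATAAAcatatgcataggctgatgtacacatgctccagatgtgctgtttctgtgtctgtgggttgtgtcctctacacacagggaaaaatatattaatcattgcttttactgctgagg

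The Col1a2 stretch held CCAAT at -109, as did 24.5% of all stretches of this length on either strand, and no TATAAA. The Col3a1 stretch held TATAAA at -117, as did 7.57% of all stretches, and no CCAAT. Among the members, Col3a1 and Col5a2 are adjacent protein-coding genes on chromosome 1 in RefSeq's order, and so are Dcn and Lum and, separately, Col6a2 and Col6a1 on chromosome 10.

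**Figure D2:**
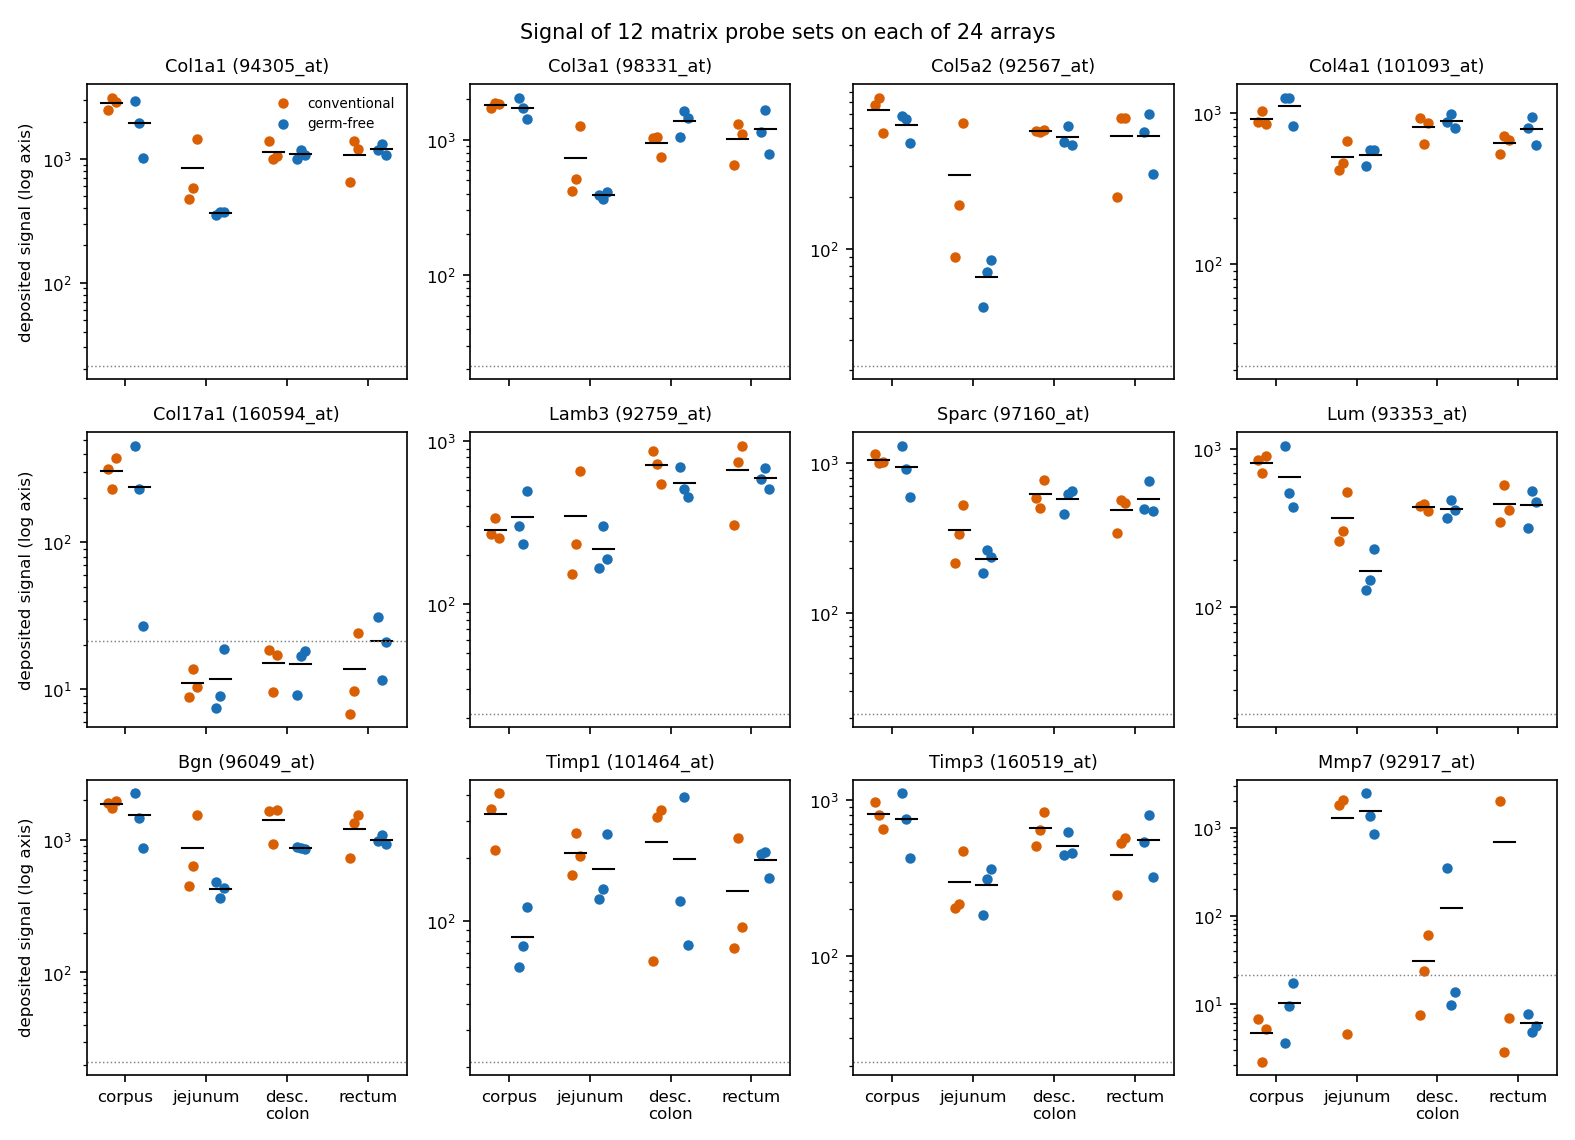
Deposited signal (log axis) of 12 probe sets on each array, by region, for conventional (orange) and germ-free (blue) mice; black bars are means of 3 arrays and the dotted line is the floor of 21.2. Most jejunum arrays lie under the corpus for the collagens, Sparc, Lum, Bgn and Timp3, and 1 orange point in the jejunum, the library labelled conventional jejunum 3, lies above the rest in most panels.

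Of the basement membrane and anchoring collagens, 6 of 9 tested probe sets were lower in the jejunum and none was higher. Col4a1 and Col4a2, the chains of the common type IV network, start head to head on chromosome 8, where their promoter windows share 78 bases. Col4a1 ran from 820 to 1248 in the corpus and from 416.7 to 645 in the jejunum, and Col4a2 from 732 to 986 and from 330.5 to 638. Neither overlapped between the regions, and the log2 differences were -0.95 ± 0.15 and -0.85 ± 0.14 (adjusted p = 7.79e-05 and 0.000112). Col4a5, a chain of a more restricted network, was lower by -1.73 and Col15a1, found at the outer face of muscle and vessel basement membranes, by -1.42. The 3 tested probe sets of Col18a1, the precursor of endostatin, were not called.

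Col17a1, the transmembrane collagen of hemidesmosomes, had the greatest fall of all members in this comparison. Its corpus signal was 230 to 455 on 5 arrays and 27 on the library labelled germ-free corpus 3, and all 6 jejunum arrays lay at the floor, so it was at least 9.74-fold lower (adjusted p = 1.17e-05). Col7a1, the anchoring fibril collagen of stratified epithelium, was 116 ± 12.9 in the jejunum against 234 ± 61.4 in the corpus, a log2 difference of -0.98 (adjusted p = 0.00788). Squamous epithelial markers were also lower in this comparison, for 17 of 19 probe sets of the list (19.2% of all probe sets). Their summed signal was 60942 to 83315 in the corpus libraries, except for 3337 in germ-free corpus 3, against 1904 to 3721 in the jejunum libraries. Col7a1 still read 163.8 in germ-free corpus 3. Its highest value, 331.2, was in conventional descending colon 3, where the squamous sum was 2973. Col7a1 and the sum thus did not always go together. The part of squamous epithelium in the result was not tested.

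Among the other collagens 8 of 14 tested probe sets were lower and none was higher. Type VI collagen forms beaded filaments around cells, and its 4 probe sets all fell: Col6a1 by 1.29 and 0.99, Col6a2 by 0.74 and Col6a3 by 0.69 on the log2 scale. The brighter Col6a1 probe set was 1252 ± 335 in the corpus against 650 ± 290 in the jejunum (SD, n = 6). Col13a1, a transmembrane collagen, was lower by -1.40, Col19a1 by -1.39, the network-forming Col8a1 by -1.27 and the fibril-associated Col14a1 by -1.06. Col9a1, Col9a2, Col9a3, Col12a1 and Col26a1 were not called.

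The 6 probe sets of the glycoproteins and small proteoglycans were all lower in the jejunum. Sparc, a collagen-binding glycoprotein, ran from 593 to 1306 in the corpus and from 183 to 522 in the jejunum, with no overlap and a 3.52-fold difference (log2 -1.82 ± 0.22, adjusted p = 8.07e-06). Lumican (Lum), decorin (Dcn) and biglycan (Bgn) are small leucine-rich proteoglycans that bind collagen fibres. Lum was 2.96-fold lower, Dcn 2.04-fold lower and Bgn 2.87-fold and 1.99-fold lower on its brighter and dimmer probe sets. Dcn had a median of 3468 in the corpus and of 1497 in the jejunum, so its signal was well above the floor in both. Fibronectin (Fn1), which links cells to collagen, differed least, by -0.68 ± 0.20 (adjusted p = 0.0122), and its jejunum values of 240.6 to 282 on 5 arrays rose to 563 on the library labelled conventional jejunum 3.

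Laminins are heterotrimers of an alpha, a beta and a gamma chain, and 6 of 12 tested probe sets were lower in the jejunum. These were Lama2, Lama4, the brighter Lama5 probe set, both Lamb1 probe sets and Lamb2, by -0.55 to -1.13. Lama2, Lama4 and Lamb2 are chains of muscle, vessel and nerve basement membranes. Lamb2 was 62.4 ± 14.7 in the jejunum against 136 ± 34.2 in the corpus, with no overlap. The chains of epithelial laminin 332, Lama3 and Lamb3, did not pass in this comparison, with log2 differences of -0.31 and -0.77 for Lamb3. For Lama3 the mean of -0.05 joined opposite differences. In conventional mice it was 199 ± 20.4 in the jejunum against 83.4 ± 19.7 in the corpus (SD, n = 3; log2 1.27, no overlap, adjusted p = 0.0963). In germ-free mice it was 70.4 ± 39.6 against 187 ± 146 (log2 -1.36, adjusted p = 0.0659), where the corpus group includes 354 in the library labelled germ-free corpus 3.

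Metalloproteinases did not follow the collagens as a group, with 2 probe sets lower, 1 higher and 4 not called of 7 tested. Mmp7 was 1812 and 2048 in conventional jejunum 1 and 2 and 2442, 1371 and 851 in the 3 germ-free jejunum arrays, but 4.5 in the library labelled conventional jejunum 3. It was at the floor on all 6 corpus arrays. The jejunum was at least 36.8-fold higher (log2 5.20 ± 1.09, adjusted p = 0.000984), and by 6.28 on the log2 scale without the 3 libraries. The library labelled conventional rectum 1 had Mmp7 at 2027 and germ-free descending colon 1 at 344, while the other descending colon and rectum arrays were at 59.6 or less. Of the 10 genes of the Paneth cell list 3 were on the array, and Mmp7 itself is 1 of them. All 3 were tested and higher in the jejunum, as were 13.7% of all probe sets. Among them Pla2g2a, a secreted phospholipase, was at 8774 in the jejunum against 309 in the corpus (log2 7.38). The summed signal of that list, which holds Mmp7, was 14528 to 26222 in the jejunum libraries, except for 2510 in the library labelled conventional jejunum 3. It was at most 1940 in the corpus libraries. In the hindgut it was 17114.5 in the library labelled conventional rectum 1, 12014 in germ-free rectum 3 and 9241 in conventional descending colon 2. Mmp7 read 2027, 5.6 and 23.8 in these libraries, so the sum and Mmp7 did not always go together. The part of Paneth cells in the result was not tested. Mmp10, a stromelysin gene on the same chromosome, was not tested. Mmp10 lay at or under the floor on 19 arrays. It read 35.5 on conventional jejunum 2, 23 to 41.4 on the 3 germ-free jejunum arrays and 73.6 on the library labelled conventional rectum 1. Mmp7 was high in each of these libraries. Mmp10 was under the floor in conventional jejunum 1 (9.4) and germ-free descending colon 1 (0.6), where Mmp7 read 1812 and 344, so the 2 genes did not always go together.

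Mmp12, macrophage elastase, was the opposite case, at 42.1 to 400 in the corpus and 21.9 to 77.3 in the jejunum, with overlapping ranges (log2 -1.80 ± 0.46, adjusted p = 0.00508). The high corpus values were 304 and 400 on conventional corpus arrays 1 and 2, and conventional corpus 3 read 42.1. Germ-free corpus arrays read 52.5, 184.6 and 126.3. Descending colon and rectum arrays read 28.5 to 136.4, highest in germ-free descending colon 3. In descending colon minus corpus over both states no metalloproteinase was called, with a lowest adjusted p of 0.0686 by limma. Mmp14, the membrane-bound activator of Mmp2, was lower by -0.61 in the jejunum (adjusted p = 0.00318). Mmp13, a collagenase, read between 19.9 and 65.7 on all arrays and was not called. Of the inhibitors, Timp3, which binds to the matrix itself, was 2.72-fold lower (log2 -1.44 ± 0.29, adjusted p = 0.000691) and Timp2, which helps Mmp14 to activate Mmp2, 2.00-fold lower (adjusted p = 0.00111). Timp1 was not called, and its mean difference of 0.23 (adjusted p = 0.727) joined -0.59 in conventional and 1.05 in germ-free mice (adjusted p = 0.559 and 0.223).

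Other genes of matrix biology, from lists written for this description, were counted in the same comparison. Of all 9033 probe sets tested, 19.2% were lower in the jejunum and 13.7% higher, and the counts below are to be read against these shares. Of genes for collagen processing and crosslinking, 10 of 17 probe sets were lower in the jejunum and none was higher. They included the prolyl hydroxylase subunit P4ha2 (107 against 325) and the collagen chaperone Serpinh1 (328 against 860), with log2 differences of -1.65 and -1.48. Of other matrix glycoproteins and proteoglycans 22 of 39 were lower and 2 higher. Fbln1, an elastic fibre protein, differed by -3.66, osteoglycin (Ogn) by -2.73 and periostin (Postn) by -2.69. Matrix receptors were mixed, with 9 of 28 lower, such as the integrin beta chains Itgb5 (-0.63) and Itgb1 (-0.61), and 4 higher, among them the laminin-binding integrin chain Itga3 (0.90 and 0.77). Other proteases and inhibitors had 8 of 20 lower and 4 higher. The serpin Serpinb2 (-4.92) and the membrane inhibitor Reck (-1.70) were lower, and meprin beta (Mep1b), a brush border protease, was higher (5.72). Of genes for TGF beta signalling 3 of 14 were lower and 1 was higher.

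Markers of mesenchymal cells moved with the matrix genes. Of smooth muscle probe sets 9 of 11 were lower in the jejunum, with a median log2 difference of -1.19, and of fibroblast probe sets, 1 of which is the member Col14a1, 10 of 15 were lower, with a median of -1.03. The summed smooth muscle signal was 20013 to 35381 in the corpus, 7984 to 16916 in the jejunum, 15283 to 29234 in the descending colon and 10766 to 23080 in the rectum. The highest jejunum sum was that of the library labelled conventional jejunum 3, and the lowest rectum sum that of the library labelled conventional rectum 1. Endothelial markers were lower for 3 of 12 probe sets. The share of all probe sets lower in the jejunum was 19.2%. The part of smooth muscle cells, fibroblasts and endothelium in the matrix differences was not tested.

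**Figure D3:**
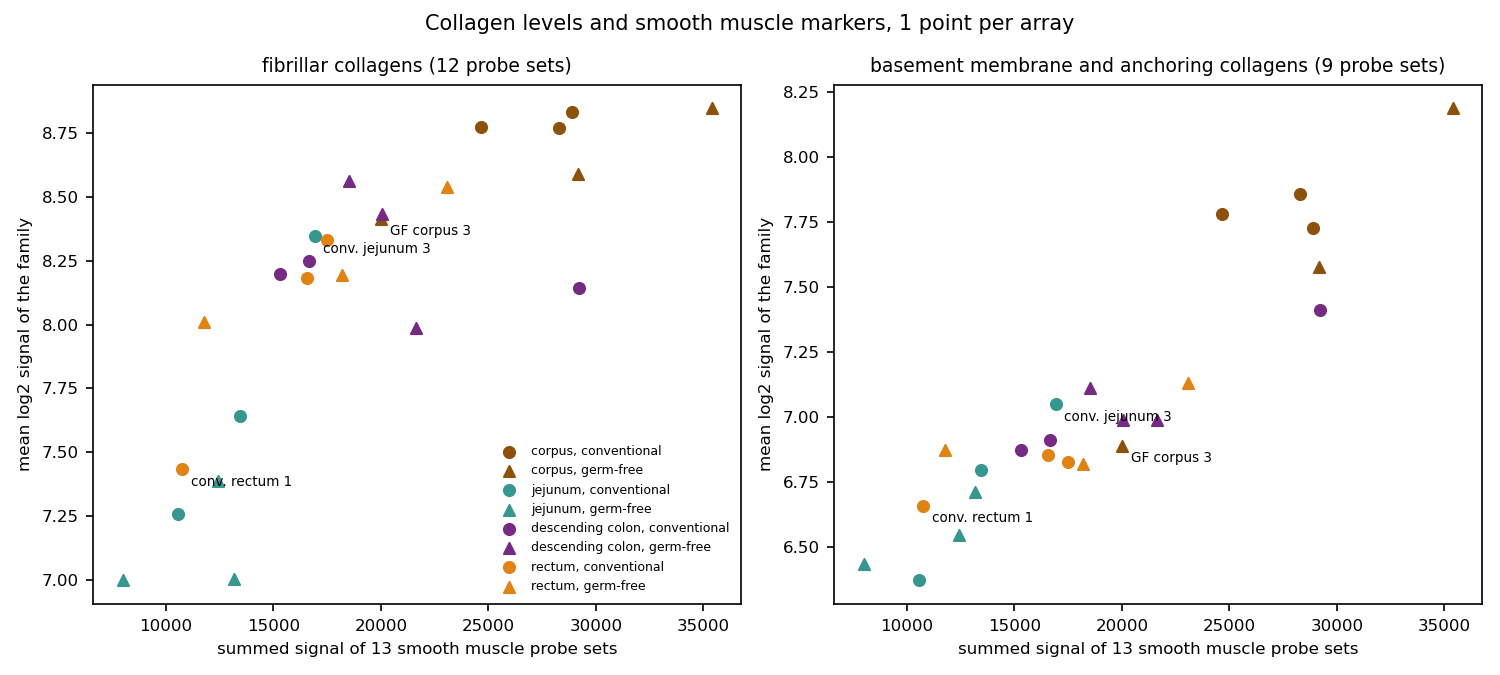
Mean log2 signal of the 12 fibrillar collagen probe sets (left) and the 9 basement membrane and anchoring collagen probe sets (right) against the summed signal of 13 smooth muscle probe sets, 1 point per array, coloured by region, with circles for conventional and triangles for germ-free mice. Jejunum arrays lie at the lower left and corpus arrays at the upper right, and the 3 named libraries lie away from the others of their region.

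The descending colon had more matrix transcript than the jejunum. Of the 63 tested probe sets, 25 (39.7%) of 20 genes were higher in the descending colon, against 9.1% of all probe sets, and Mmp7 was lower, where the share of all probe sets was 5.34%. The median difference of the members was 0.52 and that of all probe sets 0.10. This comparison uses the same jejunum arrays as the one above. Smooth muscle markers were higher in the descending colon for 7 of 11 probe sets (median log2 difference 0.74) and fibroblast markers for 5 of 15 (0.54), and their part in the result was not tested. Without the 3 libraries 34 were higher (15.2% of all probe sets). In germ-free mice alone 22 were higher (7.56% of all probe sets). In conventional mice alone none was higher or lower by limma (0% of all probe sets were higher), with 13 higher and 1 lower at an unadjusted p under 0.05, against 6.33% and 4.62% of all probe sets. That comparison includes the library labelled conventional jejunum 3. Over both states, leaving out conventional jejunum 1 or 2 gave 16 or 15 calls against 26 with all arrays. Single calls were followed through the omission of single arrays only for Mmp7 and the higher members with the largest differences. Among these, the calls of Timp3, Mmp7, Col8a1 and the Col3a1 probe set with the smallest difference were lost without 1 or more single arrays. Which of the other calls were lost was not examined, so they cannot be taken as kept.

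Of the fibrillar collagens 8 of 12 probe sets were higher. Col5a2 was 460 ± 44.4 in the descending colon against 168 ± 185 in the jejunum (SD, n = 6; log2 1.97 ± 0.34, adjusted p = 0.00226). All descending colon arrays read 398 to 514, above each jejunum array except the library labelled conventional jejunum 3. The 3 Col3a1 probe sets were higher by 1.66, 1.17 and 0.95, Col1a2 by 1.18 and Col1a1 by 1.09 on 1 probe set each. Sparc was 2.14-fold higher (598 ± 114 against 293 ± 124, adjusted p = 0.0041), Lum 1.76-fold and Bgn 1.92-fold on its brighter probe set. Dcn (0.52) and Fn1 (0.34) were not called. Mmp7 fell by 4.25 on the log2 scale (SE 1.09, adjusted p = 0.0146). Col4a1 and Col4a2 were higher by 0.70 and 0.57, and Col8a1, Col6a1, Col6a2, Col6a3, Col5a1, Col15a1, Timp3, Lamb2 and Lama4 were among the others called.

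The epithelial laminin chains Lama3 and Lamb3 had lower mean signal in the corpus than in the descending colon. The brighter probe set of Lamb3, the beta chain of laminin 332, read 455 to 873 in the descending colon and 154 to 302 in the jejunum apart from 654 in the library labelled conventional jejunum 3, a 2.51-fold difference (log2 1.33 ± 0.31, adjusted p = 0.00912). It was also the only member higher in the descending colon than in the corpus, where it read 234 to 494 (log2 1.02 ± 0.31, adjusted p = 0.0259). Its alpha chain Lama3 differed by 1.10 and 1.05 in the same comparisons without passing (adjusted p = 0.0508 and 0.0527). The highest corpus values of both, 354 for Lama3 and 494 for Lamb3, were those of the library labelled germ-free corpus 3. The dimmer Lamb1 probe set was 120 ± 31.8 in the descending colon against 58.4 ± 18.8 in the jejunum (adjusted p = 0.00408).

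**Figure D4:**
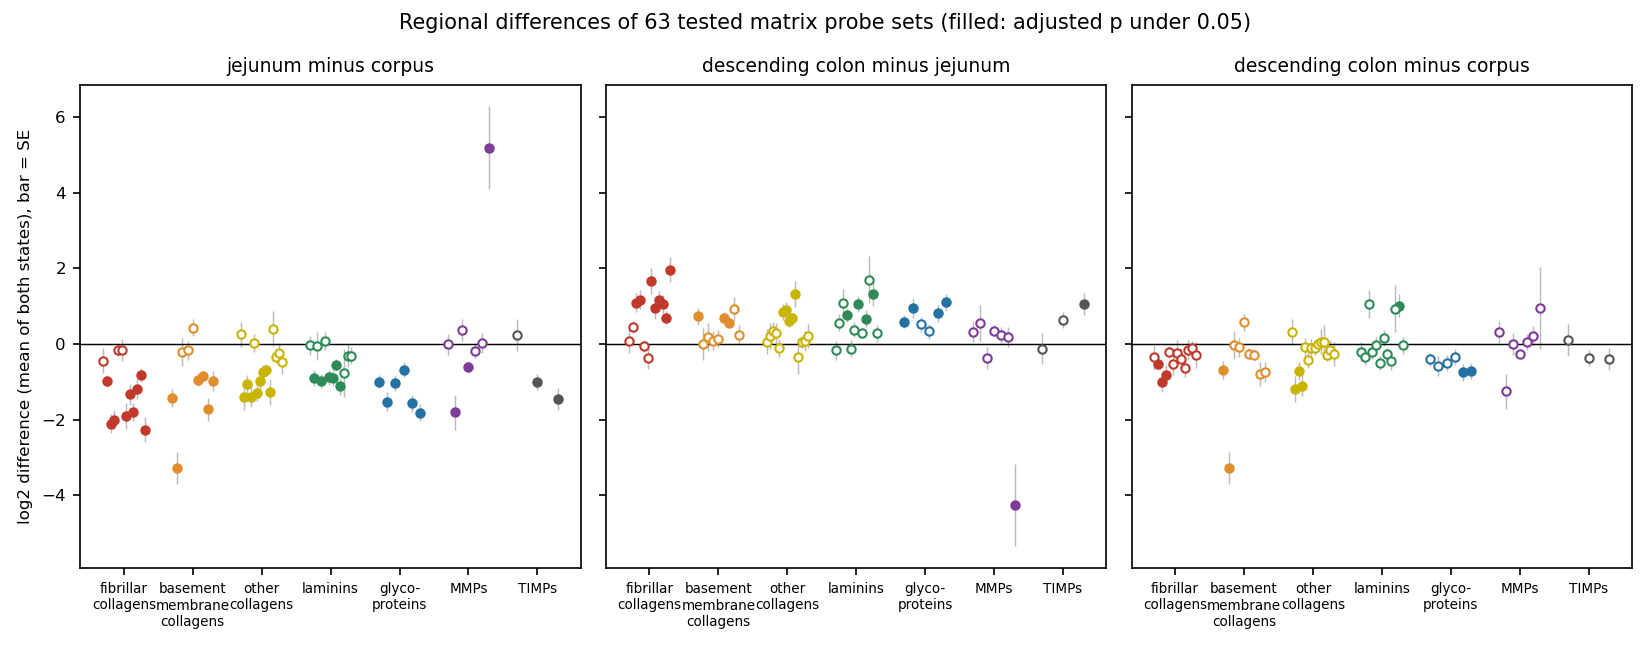
Log2 differences (mean of both states) of the 63 tested probe sets in 3 regional comparisons, by family, with SE as bars; filled points have an adjusted p under 0.05. Most collagen points lie under 0 in jejunum minus corpus and above 0 in descending colon minus jejunum, with Mmp7 at 5.20 and -4.25.

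Compared with the corpus, the descending colon had 10 of 63 probe sets lower, of 9 genes, and 1 higher, against 8.77% and 9.49% of all probe sets. The share lower was 15.9%. These arrays are those of the comparisons above. Col17a1 was again at the floor on all 6 descending colon arrays, the brighter Col1a1 probe set was 1116 ± 151 against 2387 ± 793 (log2 -1.02 ± 0.25, adjusted p = 0.00779), and Sparc (-0.72), Lum (-0.75), Col1a2 (-0.83), Col13a1 (-1.19), Col14a1 (-0.71), Col15a1 (-0.69) and Col19a1 (-1.10) were the other genes called. Col4a1, Col4a2, Col5a2, Col6a3 and Fn1 differed by -0.34 to -0.01 and were not called. In conventional mice alone 5 were lower (6.75% of all probe sets). In germ-free mice alone none was called by limma in either direction (0% of all probe sets were lower), with 7 lower and 1 higher at an unadjusted p under 0.05, against 6.85% and 7.71% of all probe sets. The germ-free corpus group includes the library labelled germ-free corpus 3. Without the 3 libraries 18 were lower (14.1% of all probe sets), and Lamb3, Lama3 and Col18a1 were higher (15.2% of all probe sets). Leaving out germ-free corpus 3 alone gave 20 calls and leaving out germ-free descending colon 1 gave 4, against 11 with all arrays. Leaving out conventional descending colon 1, conventional corpus 1, conventional corpus 3 or germ-free corpus 1 gave 5, and leaving out conventional descending colon 2 or germ-free corpus 2 gave 6. The calls of Col17a1, Col19a1 and the brighter Col1a1 probe set were kept in each of these 12 omissions. Squamous markers were lower for 17 of 19 probe sets here too, fibroblast markers for 3 of 15 (median log2 difference -0.33) and smooth muscle markers for 1 of 11 (-0.44). Their part in the result was not tested.

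The rectum adjoins the descending colon, and no member differed between them by limma's test, nor did any of the 9033 probe sets (0%). At an unadjusted p under 0.05 there was 1 member, the dimmer Lama5 probe set (log2 -0.52), among 202 (2.24%) of all those tested. Member differences ran from -0.55 (Col11a1) to 0.38 (Col9a1). The brighter Col1a1 probe set had medians of 1063 and 1195 in descending colon and rectum, Sparc of 603 and 518 and Col4a1 of 860 and 679, with overlapping ranges.

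Germ-free and conventional mice did not differ by the test for any member in any region. In the corpus 0 of 63 were called, with 2 at an unadjusted p under 0.05, and 0% of all probe sets were called (817, or 9.04%, had an unadjusted p below 0.05). In the jejunum 0 were called (0.465% of all probe sets), in the descending colon 0 (0.0111%), in the rectum 0 (0.0111%) and in the mean of the 4 regions 0 (1.68%). At an unadjusted p under 0.05 the members numbered 9, 3, 1 and 7 of 63, against 13.1%, 8.11%, 3.49% and 18.1% of all probe sets, so these shares were near or under the background. The F test of whether the state effect differed between regions called no member (0.0221% of all probe sets), and 3 members had an unadjusted p below 0.05, as did 5.4% of all probe sets. Its lowest adjusted p-values were 0.89 for Lama3 and 0.906 for Timp1. With 3 arrays a group, a p that misses the threshold does not show equal levels. Leaving out the 3 libraries gave 0 calls in each region and in their mean as well.

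**Figure D5:**
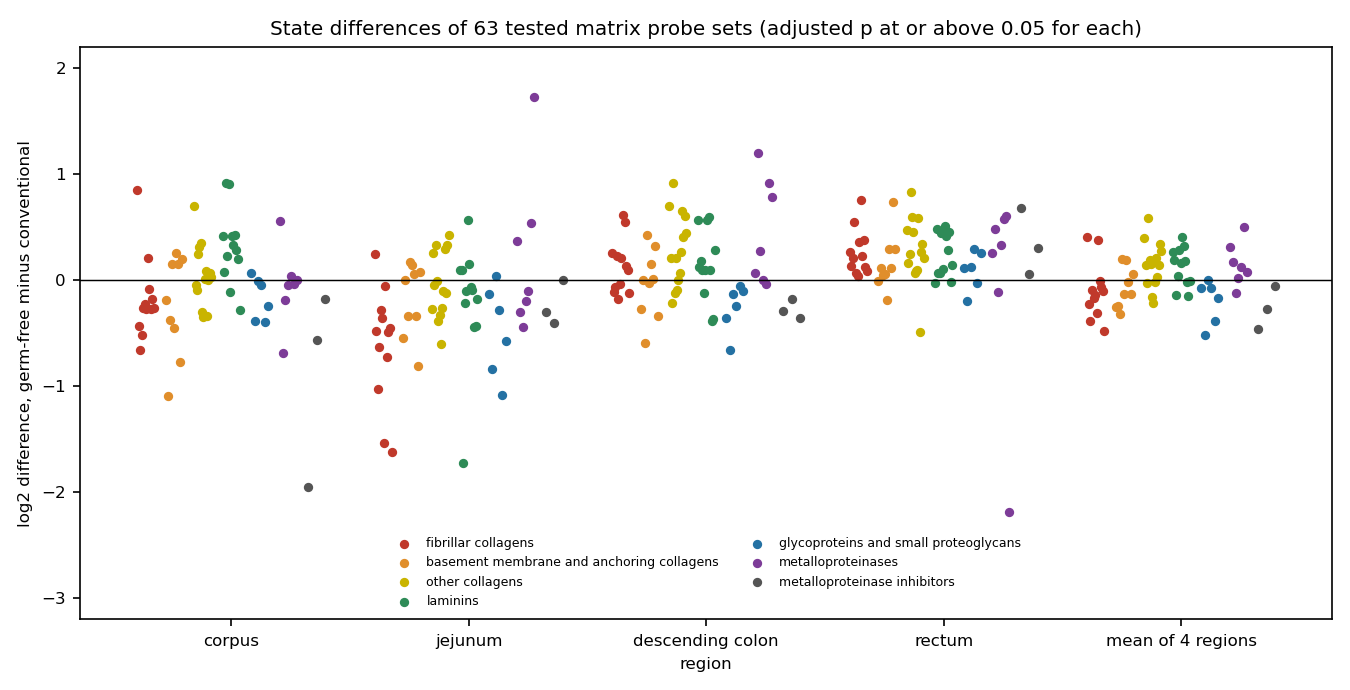
Log2 difference, germ-free minus conventional, of the 63 tested probe sets in each region and in the mean of the 4 regions, coloured by family. Points scatter on both sides of 0; the lowest corpus point is Timp1 at -1.95, and no point has an adjusted p under 0.05.

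In the corpus Timp1, a secreted inhibitor induced by cytokines in many tissues, gave the lowest p. Its conventional arrays read 344, 218 and 407 and its germ-free arrays 60.4, 75.4 and 116, so the groups did not overlap. The log2 difference was -1.95 ± 0.59 with adjusted p = 0.37. Without germ-free corpus 3 and the other libraries in doubt it was -2.21 with adjusted p = 0.369. No such gap was present elsewhere: Timp1 read 166, 264 and 203 against 127, 142 and 261 in the jejunum, and spanned 64.3 to 389 in the descending colon. The second-lowest p was that of the dimmer Lama5 probe set, at 80.6 ± 4.32 in germ-free against 43.7 ± 9.72 in conventional corpus (adjusted p = 0.416), and its brighter one did not show this gap, at 211, 212 and 195 in conventional and 321, 140 and 155 in germ-free arrays. Col1a1, Timp2, Col11a1 and Col17a1 followed with adjusted p from 0.588 to 0.603.

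In the jejunum 9 of 63 members had an unadjusted p under 0.05 and all were lower in germ-free mice, where 7.99% of all probe sets were. They were Lum, Col5a2, Lama3, Col6a2, the brighter Bgn probe set, 2 probe sets of Col3a1 and both of Col1a1. Lum read 262, 303 and 534 in conventional and 129, 149 and 234 in germ-free arrays (log2 -1.08 ± 0.32, adjusted p = 0.131). Col5a2 read 90.2, 179 and 535 against 46.5, 74.2 and 86.1 (log2 -1.62 ± 0.48, adjusted p = 0.131). The third conventional value of each is that of the library labelled conventional jejunum 3, which had the highest level of the group for 8 of the 9. Without the 3 libraries 5 members were lower at this level, against 7.32% of all probe sets, and the differences of Lum and Col5a2 were -0.77 and -0.93 (adjusted p = 0.255 and 0.216). Lama3 was the member without that pattern, at 187, 222 and 187 in conventional and 24.9, 97.3 and 89 in germ-free jejunum, with no overlap (log2 -1.72 ± 0.52, adjusted p = 0.14, and 0.149 without the 3 libraries).

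In the descending colon the lowest p-values were those of the brighter Lamb1 probe set, at 205 ± 25.2 in germ-free against 138 ± 30 in conventional mice (log2 0.59, adjusted p = 0.602), of Mmp2 (log2 0.92) and of Col19a1 (log2 0.92). In the rectum Col19a1 came first, at 41.4 ± 16 against 21.6 ± 2.37 (adjusted p = 0.982), and both values lie near or at the floor. Over the 4 regions Col19a1 (log2 0.58 ± 0.20, adjusted p = 0.128) and the 2 probe sets of Lamb1 (0.32 and 0.41, adjusted p = 0.13 and 0.153) differed without passing, and the brighter Bgn probe set differed by -0.52 (adjusted p = 0.151). Leaving out 1 library made a call in 3 cases: Col5a2 in the jejunum without conventional jejunum 1 (adjusted p = 0.0469), Lum in the jejunum without germ-free jejunum 3 (adjusted p = 0.0396), and Col19a1 in the mean of the regions without germ-free descending colon 1 (adjusted p = 0.0483).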

How the data were processed

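Total RNA of 24 tissue pieces was measured on Affymetrix arrays. The deposited values are linear signal intensity, 1 per probe set and array. With the lowest and highest values trimmed, array means over the middle 96% were 199.45 to 200.06, so the deposited intensity was taken as scaled by the authors. The signal algorithm is not given in the sources used here. Gene symbols came from the platform's annotation table.

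Signals under 21.2 (25th percentile) were raised to that floor before taking log2. Probe sets above 51.5 (40th percentile) on at least 3 arrays were tested, without the 66 controls, which left 9033. The fit of 8 group means used limma 3.58.1 (R 4.3.3, statmod 1.5.0) with an intensity trend; p-values were two-sided and adjusted by Benjamini-Hochberg over the 9033 at 0.05. Regional comparisons average both states. Folds are on the floored scale, and "at least" marks a lower group at the floor on all arrays. Errors are SD for signals and SE for log2 differences. The number of arrays limits the precision. Which arrays come from 1 mouse is not in the labels, and p-values therefore reflect only array-to-array spread, which may be technical.

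The members and lists were chosen with earlier results of these data known. Named in each regional comparison were up to 12 called members each way, in each state comparison the members of lowest p up to 6, in the test across regions the 6 of lowest p, always Col1a1, Col1a2, Col3a1, Col4a1, Col4a2, Fn1, Sparc, Lum, Dcn, Bgn, Mmp7, Timp1, Timp2 and Timp3, and up to 4 per context list; other members are named to account for the families. Mmp10 and Mmp13 were singled out after their values were seen. Replicate numbers were checked for pairing. Same-numbered arrays of a state had deviations correlated from -0.497 to 0.666, with medians by number of 0.00567 to 0.299. For germ-free numbers 1 and 3 and conventional number 3 each correlation was above 0. Arrays of different numbers were not compared in this way, so the correlations do not decide whether numbers mark pairs. The main fit did not take them as pairs. The steps were tested on simulated data.

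Promoter windows were read from RefSeq's table for GRCm38.p6 and matched by gene identifier. Alternatives covered scaling, floor, filter, variance trend, averaging of probe sets, a replicate block, which arrays were fitted, and omission of arrays.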

Additional observations from a re-analysis of the deposited data

How the results depend on the processing

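No called regional difference of a member (40, 26 and 11 in the 3 comparisons with calls) changed sign in any alternative run. Of the differences that were not called, 14 of 23, 18 of 37 and 19 of 52 changed sign in at least 1 alternative, as did 26 to 35 of 63 between states; Col17a1 in the corpus, for example, went from -1.09 to 0.10 without the 3 libraries. Jejunum minus corpus called 40 to 41 members when each array was left out. For descending colon minus jejunum, 26 calls became 14 with array medians equalised and 0 in conventional mice alone, and lay between 15 and 33 when 1 array was left out; the lowest counts were 15 without conventional jejunum 2 and 16 without conventional jejunum 1, and the highest was 33. For descending colon minus corpus, 11 calls became 21 without the 3 libraries, 19 without those and germ-free rectum 1 and germ-free descending colon 1, 5 in conventional mice alone and 0 in germ-free mice alone, and lay between 4 and 20 when 1 array was left out. Leaving out 1 array gave 0 to 1 calls between states in the jejunum and in the mean of the regions. The cause of these changes was not tested. Equalising array medians moved the median of all probe sets in jejunum minus corpus from -0.10 to 0.08, and no called member changed direction. With the replicate number as a random block (consensus correlation 0.12) the counts were 40, 31, 0 and 15 in the 4 regional comparisons, and 0 between states in every region, so pairing by number changed none of these by over 1.5 times. Signals near the floor, as for Mmp2, Mmp13 and Col2a1, limit what could be seen.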
